A study of Mus musculus with 8 samples.

Results

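Interferon-stimulated genes are the genes that cells switch on when an interferon binds its receptor. A list of 45 of them, with the receptor chains, transcription factors, nucleic acid sensors, antiviral effectors and antigen presentation genes that belong to the same response, was followed out of the 40840 genes in the deposited tables. Members were taken by gene symbol, with earlier results of these data known, and all 45 genes had enough counts to be tested. The cells were primary myofibroblastic hepatic stellate cells (pMF-HSCs), taken from male C57BL/6J mice of 15 to 18 weeks by retinol autofluorescence and grown for 7 days on plastic, where stellate cells turn into collagen-producing myofibroblasts. For 24 h they then received DMSO, the vehicle (control, n = 4), or 50 µM OSMI-1 (OGTi, n = 4), a small molecule that blocks O-GlcNAc transferase, the enzyme placing the sugar O-GlcNAc on proteins. The labels list no added interferon in either group, so the levels below are those of cells in ordinary culture medium. The 4 replicates were paired, 1 control and 1 OGTi culture each, and the model is a sorted and cultured cell population treated with 1 inhibitor at 1 dose.

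Library totals ranged from 30068876 to 37372420 expected counts. A list of 13 stellate and myofibroblast markers, including Acta2, Des and Col1a1, summed to between 4098 and 9257 TPM (a level scaled by transcript length and depth) in every library, while 8 lymphoid markers summed to at most 0.78 TPM. Macrophage markers reached 50.3 to 200.9 TPM in control and 90.2 to 250.9 TPM in OGTi over 13 genes, and most of this came from Lyz2 and Cd68, while Ptprc stayed at or below 0.11 TPM in all 8 libraries. In replicate 1, Csf1r had 3.74 TPM in control and 2.22 in OGTi, Cd68 32.3 and 69.4, and Lyz2 13.7 and 18.6. Each of the other 10 macrophage genes, which include Adgre1, Clec4f, C1qb and Tyrobp, had at most 0.38 TPM in replicates 1 and 2 and up to 16.3 TPM in replicates 3 and 4. In whole-culture RNA, fewer cells of a type and less RNA per cell cannot be told apart.

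Type I interferons bind IFNAR1 and IFNAR2 on almost every cell, and the kinases JAK1 and TYK2 then pass the signal on by phosphorylation. The complex ISGF3, which holds STAT2 and IRF9, binds the interferon-stimulated response element (ISRE) in promoters. Interferon gamma acts through another receptor and another promoter element, the gamma-activated site (GAS). Many products are made at a low level without infection and act as sensors and effectors against viruses, and interferons are also known to act on hepatic stellate cells.

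Many of these genes were lower after OGTi. Counts were compared after scaling each library (scaled counts), with edgeR's quasi-likelihood test and the replicate pair as a block, and a gene was called at a Benjamini-Hochberg adjusted p of at most 0.05 over all 19963 genes tested. Of the 45 genes, 22 fell and 1, H2-D1, rose, while 22 passed the test in neither direction. Over all genes tested 18.4% were called, 10.2% lower and 8.13% higher, against 48.9% of the 45 called lower. The median log2 fold change (OGTi over control) of the 45 was -1.24 against 0.01 over all genes tested, and 37 of the 45 had a value below 0. The IFIT family and both PARP genes fell in full, the OAS family and the transcription factors divided, and none of the receptors or antigen presentation genes passed the test for a lower level. In 10 of the 45 genes every OGTi library lay below every control library, a pattern seen in 12% of all genes tested.

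**Figure D1:**
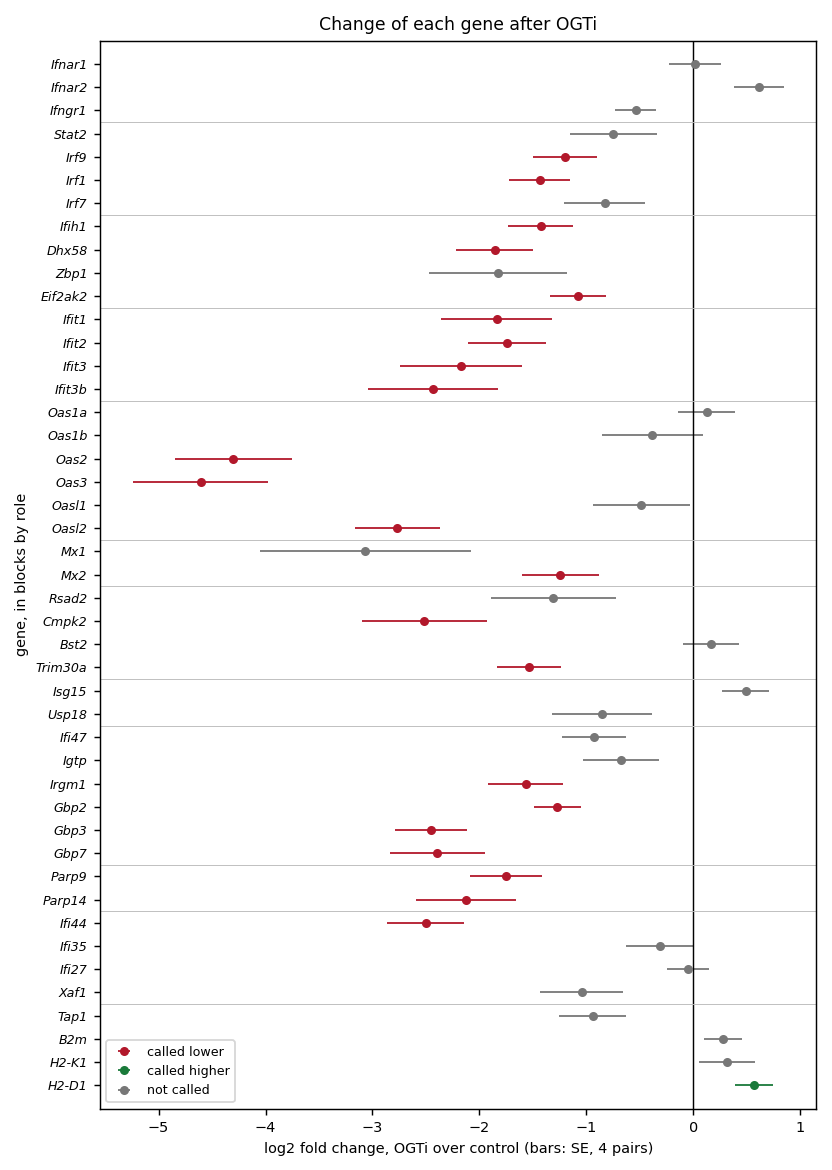
The log2 fold change of each gene (OGTi over control) is plotted on the horizontal axis, with genes grouped by role on the vertical axis. Bars give the standard error of the edgeR fit to 4 pairs, not the spread between pairs. The values run from -4.61 (Oas3) to 0.61 (Ifnar2), and 37 of the 45 points lie left of 0.

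The number of calls depended on replicate pair 4. Without it, 11 of the 22 genes kept the call (Irf1, Ifit2, Oas2, Oas3, Oasl2, Trim30a, Gbp2, Gbp3, Gbp7, Parp9 and Ifi44), the median was -0.95, and 5.67% of all genes tested were called lower. Without the replicate block 15 of the 22 kept the call, against 7.67% of all genes tested called lower. Those lost were Irf9, Ifih1, Dhx58, Ifit1, Mx2, Trim30a and Parp9, with adjusted p from 0.0616 to 0.292. Without replicate 3, 15 of the 22 kept the call, Irf9 not among them, against 5.52% of all genes tested called lower.

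Promoter sequences show which of these genes hold the elements named above. RefSeq promoter windows of 300 bases, from 250 before to 50 after the start site, were at hand for 35 of the 45 genes, and each was placed in GRCm39 by an exact match. An ISRE core, written here as GAAA, any 2 bases and GAAA again on either strand, occurred in 18 of the 35 (51.4%) against 3.99% of 27025 genes in the same table. The GAS letters TTCNNNGAA, which read the same on both strands, occurred in 10 of the 35 (28.6%) against 9.55%. Where a gene had several windows a match in any of them counted, which applied to the ISRE cores of Gbp3. Of the genes that fell, 11 of 17 with a promoter held an ISRE core, and of the other members, which include the receptor chains, 7 of 18 did. Among the other members, the window of Ifi47 was set on a start site 10447 bases from the main GENCODE transcript start, that of H2-D1 379 and that of Igtp 263. For the genes that fell, the nearest window of each lay at most 78 bases away (Ifi44). The difference between both shares was not tested. A match describes the letters only and is not a measured binding site.

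Below are windows of 5 genes that fell and of 2 that did not pass the test, chosen to show the motif types side by side. All are from the RefSeq promoter table and are given 5′ to 3′ on the gene's strand, with the matched letters in capitals. Ifit3 (chr19:34560679-34560978, plus strand, GRCm39) and Ifit3b (chr19:34585107-34585406, plus) hold 2 ISRE cores each on the opposite strand. Oas3 (chr5:120915675-120915974, minus) holds 1 on its own strand. Irf1 (chr11:53660591-53660890, plus) holds 1 GAS and no ISRE core. Gbp7 (chr3:142235847-142236146, plus) holds both. Of the genes not called, Isg15 (chr4:156285226-156285525, minus) has 3 overlapping ISRE cores from -78 to -57, and Bst2 (chr8:71990067-71990366, minus) has 2 ISRE cores and a GAS that overlap.
Ifit3: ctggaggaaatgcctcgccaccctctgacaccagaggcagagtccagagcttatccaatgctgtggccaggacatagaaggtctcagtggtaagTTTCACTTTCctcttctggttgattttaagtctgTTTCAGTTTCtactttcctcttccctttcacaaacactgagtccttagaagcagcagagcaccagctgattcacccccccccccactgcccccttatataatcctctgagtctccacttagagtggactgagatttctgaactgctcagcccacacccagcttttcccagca
Ifit3b: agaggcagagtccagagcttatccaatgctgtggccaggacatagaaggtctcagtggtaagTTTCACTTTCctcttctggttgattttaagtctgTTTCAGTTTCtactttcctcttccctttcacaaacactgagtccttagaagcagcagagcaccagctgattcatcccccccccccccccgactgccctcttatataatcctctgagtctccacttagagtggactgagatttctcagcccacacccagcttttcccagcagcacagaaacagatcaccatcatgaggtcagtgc
Oas3: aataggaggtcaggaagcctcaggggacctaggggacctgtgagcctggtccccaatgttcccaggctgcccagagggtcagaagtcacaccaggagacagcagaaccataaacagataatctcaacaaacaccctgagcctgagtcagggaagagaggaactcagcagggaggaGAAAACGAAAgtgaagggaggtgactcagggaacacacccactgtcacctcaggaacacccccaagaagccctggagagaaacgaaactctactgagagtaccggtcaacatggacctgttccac
Irf1: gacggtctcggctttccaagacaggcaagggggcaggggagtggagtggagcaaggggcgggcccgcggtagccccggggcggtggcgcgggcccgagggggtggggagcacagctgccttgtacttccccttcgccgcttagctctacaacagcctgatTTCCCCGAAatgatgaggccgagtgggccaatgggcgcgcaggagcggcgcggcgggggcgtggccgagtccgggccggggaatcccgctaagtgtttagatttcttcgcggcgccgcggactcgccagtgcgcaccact
Gbp7: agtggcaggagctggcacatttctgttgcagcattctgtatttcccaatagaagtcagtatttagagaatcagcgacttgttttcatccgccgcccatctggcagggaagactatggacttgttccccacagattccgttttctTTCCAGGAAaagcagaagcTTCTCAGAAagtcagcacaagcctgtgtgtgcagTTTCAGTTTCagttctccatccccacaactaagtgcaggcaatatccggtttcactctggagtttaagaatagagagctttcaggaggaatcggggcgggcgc
Isg15: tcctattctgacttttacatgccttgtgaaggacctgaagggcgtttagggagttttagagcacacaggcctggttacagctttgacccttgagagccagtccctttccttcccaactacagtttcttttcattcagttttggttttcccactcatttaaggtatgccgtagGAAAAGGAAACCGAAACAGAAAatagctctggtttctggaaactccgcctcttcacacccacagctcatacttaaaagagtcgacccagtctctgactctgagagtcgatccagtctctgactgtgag
Bst2: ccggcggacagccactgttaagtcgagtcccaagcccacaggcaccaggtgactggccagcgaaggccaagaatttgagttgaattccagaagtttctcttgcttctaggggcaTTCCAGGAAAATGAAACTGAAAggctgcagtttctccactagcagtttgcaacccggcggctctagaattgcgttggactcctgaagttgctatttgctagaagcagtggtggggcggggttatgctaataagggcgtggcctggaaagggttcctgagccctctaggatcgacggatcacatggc

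**Figure D2:**
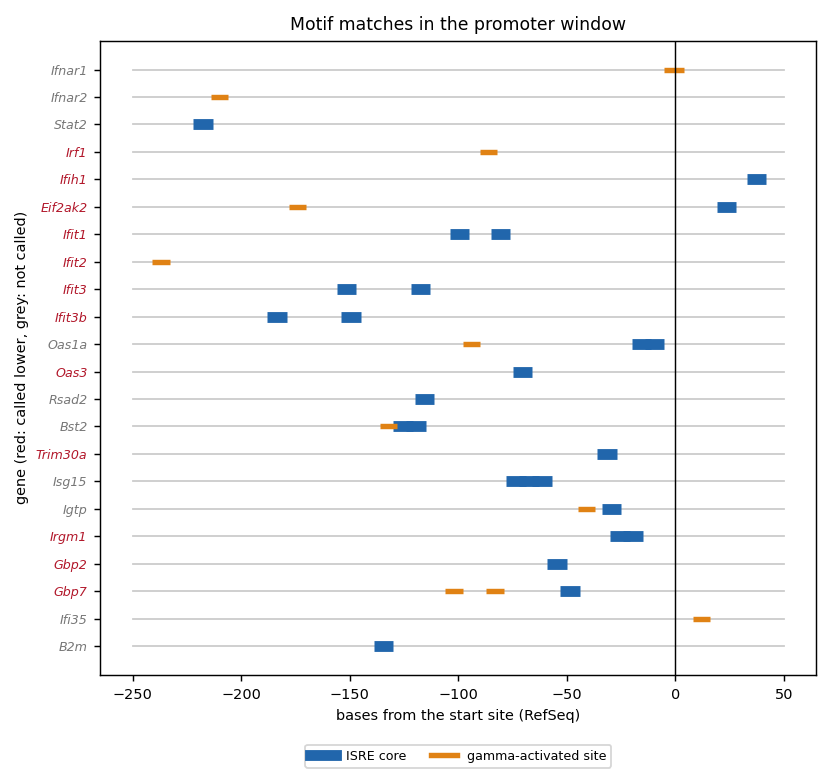
Each horizontal line is a promoter window drawn by distance in bases from the RefSeq start site, with ISRE cores as thick blue marks and GAS letters as thin orange marks. Names in red are genes called lower and names in grey are genes not called, and ISRE cores stand on both kinds of line.

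The receptor chains were not among the genes that fell. Ifnar1 (chr16:91281942-91305789), the signalling chain of the type I receptor, was counted at 7622, 6456, 7222 and 7739 in control replicates 1 to 4 and 4445, 8513, 10436 and 7151 in OGTi replicates 1 to 4. These ranges overlapped, with OGTi holding both the lowest and the highest library (log2 fold change 0.01 ± 0.24 (SE), adjusted p = 0.981). Ifnar2, its ligand-binding partner, stood at 2975, 3541, 3021 and 1529 (control) against 4991, 3693, 4016 and 3604 (OGTi). Every OGTi library lay above every control library for Ifnar2, yet the difference missed the threshold (log2 fold change 0.61 ± 0.23 (SE), adjusted p = 0.0998), and 21.5% of the 50-base stretches of its transcript also occur in a neighbouring gene model, Gm21970, so that reads may be divided between them. Ifngr1, the ligand-binding chain of the interferon gamma receptor, stood at 11018, 9118, 9273 and 10050.0 (control) against 7315, 6205, 8226 and 5657 (OGTi). Here the OGTi libraries were all below the control libraries, again without passing the test (log2 fold change -0.54 ± 0.19 (SE), adjusted p = 0.0818). Ifngr1 was called lower in 2 of 13 alternatives, with library totals alone and with limma on TPM.

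The transcription factors that receive the signal all had values below 0, and 2 of 4 passed the test. Irf9 (chr14:55841028-55847812), the DNA-binding part of ISGF3, had 1821, 872, 2779.9 and 5464 in control replicates 1 to 4 and 1061, 705, 746 and 1554 in OGTi replicates 1 to 4 and fell (log2 fold change -1.20 ± 0.30 (SE), adjusted p = 0.0198). The control libraries spread over a wide range and 2 of the OGTi libraries fell within it. Irf1 (chr11:53660812-53669200), a factor that responds strongly to interferon gamma, fell, with 478, 581, 812 and 810.3 (control) against 289, 247, 163 and 288 (OGTi) and no overlap between groups (log2 fold change -1.44 ± 0.29 (SE), adjusted p = 0.00733). Stat2, the STAT that pairs with IRF9, had 1612, 839, 2422 and 5937 (control) against 402, 1558, 1675 and 2435 (OGTi). Pair 2 went up and the others went down, and the change did not pass the test (log2 fold change -0.75 ± 0.41 (SE), adjusted p = 0.239). Irf7, the factor that amplifies type I interferon production, had 779.7, 354, 1976 and 5846 (control) against 621, 506, 577 and 1844 (OGTi), a drop in pairs 1, 3 and 4 only (log2 fold change -0.83 ± 0.38 (SE), adjusted p = 0.16).

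Among the sensors, 3 of 4 fell. Ifih1 (chr2:62425714-62476607), which encodes the double-stranded RNA sensor MDA5, had 2101, 1106, 2906 and 6753 (control) against 519, 940.3, 1019.6 and 1809 (OGTi) and fell in every pair (log2 fold change -1.43 ± 0.31 (SE), adjusted p = 0.01). Dhx58, its regulator LGP2, had 147, 82.7, 303 and 1031 (control) against 56.3, 49.1, 49.7 and 172 (OGTi) (log2 fold change -1.86 ± 0.36 (SE), adjusted p = 0.00621). In both genes the highest OGTi library was OGTi replicate 4. Eif2ak2, the double-stranded RNA-activated kinase PKR that halts translation, had 638, 461, 929 and 1411 (control) against 408, 308, 290.2 and 527 (OGTi) and was lower in all pairs (log2 fold change -1.08 ± 0.26 (SE), adjusted p = 0.0178). Zbp1, a sensor of Z-form nucleic acid that can start necroptosis, had 227, 14.9, 713 and 2582 (control) against 127, 29, 59.6 and 319 (OGTi). Its fold change was close to that of Dhx58, but control replicate 2 lay below every OGTi library and the test was not passed (log2 fold change -1.83 ± 0.65 (SE), adjusted p = 0.0787).

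The IFIT family, proteins that bind foreign RNA ends and hold back its translation, fell in full. These genes lie together on chromosome 19. Ifit1 (chr19:34618271-34632174) was counted at 1114, 235, 2955 and 10371 in control replicates 1 to 4 and 282, 342, 535 and 1226 in OGTi replicates 1 to 4, and fell (log2 fold change -1.84 ± 0.52 (SE), adjusted p = 0.0329). Pair 2 moved the other way from pairs 1, 3 and 4, and control replicate 2 lay below all OGTi libraries. The Ifit1 call was lost in 6 of 13 alternative analyses, among them the fit without the block. Ifit2 had 952, 866, 1106 and 1748 (control) against 109.6, 579.6, 335 and 567 (OGTi), the only IFIT gene with no overlap between groups (log2 fold change -1.74 ± 0.37 (SE), adjusted p = 0.00932). Ifit3 (chr19:34560899-34566443) had 1546, 648, 4453 and 15879 (control) against 501, 659, 585 and 965 (OGTi) (log2 fold change -2.17 ± 0.57 (SE), adjusted p = 0.0254). Its control libraries differed by 24.5-fold and its OGTi libraries by 1.93-fold, so that the OGTi libraries met at about the level of the lowest control culture. Ifit3b, its near copy, had 425, 161, 1313 and 4980.2 (control) against 118, 145, 151 and 223 (OGTi) (log2 fold change -2.44 ± 0.61 (SE), adjusted p = 0.0202). Since 46.9% of the 50-base stretches of Ifit3 occur in other genes, mainly in Ifit3b, the division of reads between both is uncertain. Without pair 1, 3 or 4 neither Ifit3 nor Ifit3b passed the test.

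**Figure D3:**
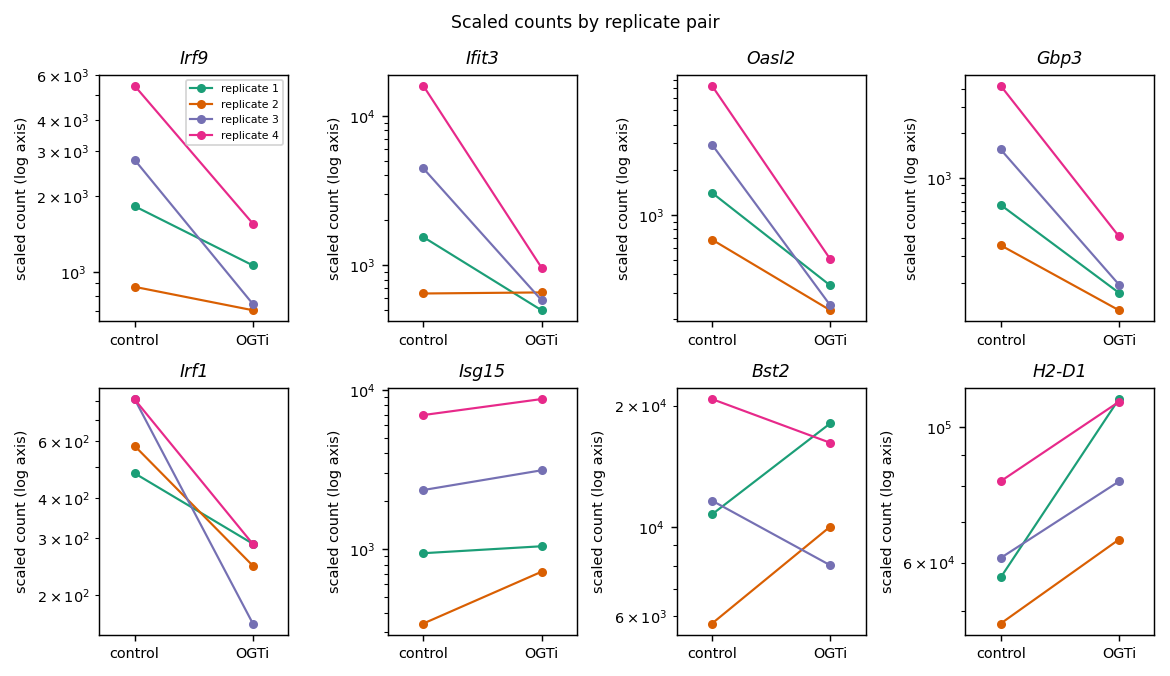
Scaled counts (log axis) of 8 genes in each of the 4 replicate pairs, control on the left and OGTi on the right of each panel, with a colour per replicate. Oasl2, Gbp3 and Irf1 went down in all pairs, Ifit3 was nearly level in pair 2, and Isg15 and H2-D1 went up in all pairs.

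The oligoadenylate synthetase family, some of whose members make the second messenger that activates RNase L, divided evenly. Oas3 (chr5:120891163-120915729) had the lowest fold change of all 45 genes in the blocked edgeR fit, with 34.9, 20.2, 86.6 and 505 (control) against 0, 4.47, 1.1 and 18.4 (OGTi) (log2 fold change -4.61 ± 0.63 (SE), adjusted p = 0.00131). No count was found in OGTi replicate 1, and the highest OGTi library, replicate 4, lay just under the lowest control library. The Oas3 value was -1.09 with limma on log2(TPM + 1), where the call was lost (adjusted p = 0.0798), and it ranged down to -5.28 over the 13 alternatives. Oas2, its neighbour on chromosome 5 (chr5:120868398-120887933), had 134, 32.5, 317 and 1379 (control) against 3.07, 10.1, 12.1 and 43.6 (OGTi) (log2 fold change -4.30 ± 0.55 (SE), adjusted p = 0.000873), with only OGTi replicate 4 inside the control range, and its value was -2.02 with limma. Oasl2 had 1403, 682, 2948 and 7289.7 (control) against 337, 230.0, 248 and 505 (OGTi), a fall with no overlap (log2 fold change -2.77 ± 0.40 (SE), adjusted p = 0.00156). The other members did not pass the test. Oas1a had 2123, 805, 2871 and 7300.3 (control) against 2819, 1547, 2274 and 5169 (OGTi) (log2 fold change 0.13 ± 0.27 (SE), adjusted p = 0.798), and 56.8% of its transcript stretches occur in Oas1g. Oas1b, which carries a truncating mutation in most laboratory strains, had 93.6, 27.3, 159 and 462 (control) against 88.1, 79.3, 77.2 and 147 (OGTi) (log2 fold change -0.38 ± 0.47 (SE), adjusted p = 0.635). Oasl1, known to restrain the translation of Irf7, had 538, 236, 518 and 2048 (control) against 443, 618, 239 and 585 (OGTi) (log2 fold change -0.49 ± 0.45 (SE), adjusted p = 0.513). In Oas1a, Oas1b and Oasl1 all OGTi libraries lay within the control range.

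Of the Mx GTPases, Mx2 fell and Mx1 did not pass the test. Mx2 had 100, 16.7, 127 and 783 (control) against 66.6, 14.5, 33.1 and 208 (OGTi), with a high value in OGTi replicate 4 (log2 fold change -1.24 ± 0.36 (SE), adjusted p = 0.0377), a call lost in 5 of 13 alternatives. Mx1, which is defective in C57BL/6 mice, had 9.17, 0, 3.68 and 80.9 (control) against 3.07, 0, 0 and 4.59 (OGTi) (log2 fold change -3.07 ± 0.99 (SE), adjusted p = 0.0613). Most of these libraries held a few counts or none.

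Antiviral effectors with other mechanisms were also mixed. Cmpk2, a mitochondrial nucleotide kinase, had 244, 80, 319 and 432 (control) against 10.2, 71.5, 47.4 and 63.2 (OGTi) and fell (log2 fold change -2.52 ± 0.59 (SE), adjusted p = 0.0148). Its neighbour on chromosome 12, Rsad2, which encodes the antiviral enzyme viperin, had 471, 54.5, 576 and 3468 (control) against 212, 146, 113 and 567 (OGTi). Control replicate 4 stood far above the other controls and Rsad2 did not pass the test (log2 fold change -1.31 ± 0.58 (SE), adjusted p = 0.154). Trim30a, a TRIM protein that dampens Toll-like receptor signalling, had 970.5, 468, 1803 and 4148 (control) against 313, 348, 427 and 1059 (OGTi) (log2 fold change -1.54 ± 0.30 (SE), adjusted p = 0.0063). Bst2, the tetherin that holds budding virus at the membrane, had 10739, 5757, 11615 and 20750.4 (control) against 18059, 10016, 8031 and 16164 (OGTi), in pairs 1 and 2 higher and in pairs 3 and 4 lower after OGTi (log2 fold change 0.16 ± 0.26 (SE), adjusted p = 0.727).

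Isg15, the ubiquitin-like protein that is conjugated to other proteins, was not among the genes that fell. It was counted at 943, 341, 2349.9 and 6946 in control replicates 1 to 4 and 1043, 721, 3126 and 8754 in OGTi replicates 1 to 4, a value above control in each of the 4 pairs that did not pass the test (log2 fold change 0.49 ± 0.22 (SE), adjusted p = 0.158). The order of the cultures, 4 above 3 above 1 above 2, was the same in both groups. Usp18, which removes ISG15 and also blocks the type I receptor, had 2401, 784, 4924 and 13023 (control) against 2195, 1415, 1223 and 3112 (OGTi), with lower values in pairs 1, 3 and 4 (log2 fold change -0.86 ± 0.47 (SE), adjusted p = 0.241). The difference between Isg15 and the genes that fell was not itself tested.

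The GTPases that attack the vacuoles of intracellular parasites and bacteria fell in 4 of 6 cases. Irgm1 (chr11:48752795-48763164), the regulator of the immunity-related GTPases, had 6169, 4634, 11608 and 18445 (control) against 3120.5, 3459.6, 2399 and 3083 (OGTi) (log2 fold change -1.57 ± 0.35 (SE), adjusted p = 0.0124). The guanylate-binding proteins stand in a cluster on chromosome 3. Gbp3 (chr3:142265731-142278979) had 664, 356, 1563 and 4179 (control) against 171, 131, 194 and 409 (OGTi) and fell (log2 fold change -2.45 ± 0.34 (SE), adjusted p = 0.00134), with only OGTi replicate 4 above the lowest control library. Gbp2 had 1534, 1083, 2597 and 4062 (control) against 804, 540.5, 832 and 1435 (OGTi) (log2 fold change -1.27 ± 0.22 (SE), adjusted p = 0.00399), and Gbp7 had 710.0, 627, 1290.1 and 1896 (control) against 185, 361, 103 and 210.2 (OGTi) (log2 fold change -2.39 ± 0.44 (SE), adjusted p = 0.00503). All of these were lower in each pair. Ifi47 had 2003, 2025, 1936 and 2188 (control) against 2018, 1271, 818 and 624 (OGTi), and its control libraries were nearly level (log2 fold change -0.93 ± 0.30 (SE), adjusted p = 0.0555). Igtp had 2503, 1139.7, 3058 and 6945 (control) against 2454, 1549, 1113 and 2205 (OGTi) (log2 fold change -0.68 ± 0.36 (SE), adjusted p = 0.222). Neither of this pair passed the test, and 12.9% of the transcript stretches of Igtp occur in other genes, as do 12.8% of those of Gbp7.

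Both PARP genes fell. Parp9, which works with the ubiquitin ligase DTX3L, had 599, 453, 1151 and 2479 (control) against 117, 338, 246 and 644 (OGTi) (log2 fold change -1.75 ± 0.33 (SE), adjusted p = 0.00591). Parp14, a mono-ADP-ribosyltransferase, had 296, 150.4, 429 and 1229 (control) against 69.6, 133, 61.8 and 126 (OGTi) (log2 fold change -2.12 ± 0.47 (SE), adjusted p = 0.0114). Control replicate 4 was the highest library in both. Of the remaining interferon-induced genes, Ifi44 fell, with 1076, 416, 3113 and 9267 (control) against 217, 186, 284 and 1160.1 (OGTi) (log2 fold change -2.50 ± 0.36 (SE), adjusted p = 0.00159). Xaf1, an antagonist of the apoptosis inhibitor XIAP, had 1087, 463, 2049 and 4340.5 (control) against 865, 530.4, 481 and 1143 (OGTi) (log2 fold change -1.04 ± 0.39 (SE), adjusted p = 0.093). The OGTi libraries of Xaf1 all lay within the control range, at its lower end. Ifi35 had 2065, 1699.9, 3013 and 4930.1 (control) against 2964, 2165, 1638 and 2061 (OGTi) (log2 fold change -0.32 ± 0.32 (SE), adjusted p = 0.547). Ifi27 had 15515, 12253, 15117 and 13543 (control) against 20982, 11493, 13556 and 10333 (OGTi) (log2 fold change -0.05 ± 0.20 (SE), adjusted p = 0.893), the flattest of the control profiles beside Ifnar1, Ifngr1 and Ifi47.

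In antigen presentation, 1 of 4 genes passed the test, in the upward direction. H2-D1 (chr17:35481691-35486475), a class I heavy chain, had 56756, 47727, 61077 and 81504 in control replicates 1 to 4 and 111010.0, 65456, 81426 and 109862 in OGTi replicates 1 to 4 and rose in every pair (log2 fold change 0.57 ± 0.17 (SE), adjusted p = 0.0474). This call was lost without the replicate block (adjusted p = 0.13), with library totals alone, with limma on TPM and when any 1 pair was left out, and over 13 alternatives its adjusted p ranged from 0.017 to 0.215. Other genes, H2-Q1 the most, share 14.2% of its transcript stretches, so that its reads may be divided among them. H2-K1, the other classical heavy chain, had 16528, 14742, 23831 and 45455 (control) against 41328, 18372, 20849 and 40636 (OGTi) (log2 fold change 0.31 ± 0.26 (SE), adjusted p = 0.453). B2m, the light chain of all class I molecules, had 62420.0, 47994, 72802 and 106025 (control) against 102894, 53084, 80340.5 and 113112 (OGTi) (log2 fold change 0.27 ± 0.18 (SE), adjusted p = 0.325). Tap1, which carries peptides into the endoplasmic reticulum for class I loading, lay lower in every OGTi library, with 2117, 1844, 2789 and 4728 (control) against 1816, 1549, 1111 and 1205 (OGTi), and missed the threshold (log2 fold change -0.94 ± 0.31 (SE), adjusted p = 0.0639).

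**Figure D4:**
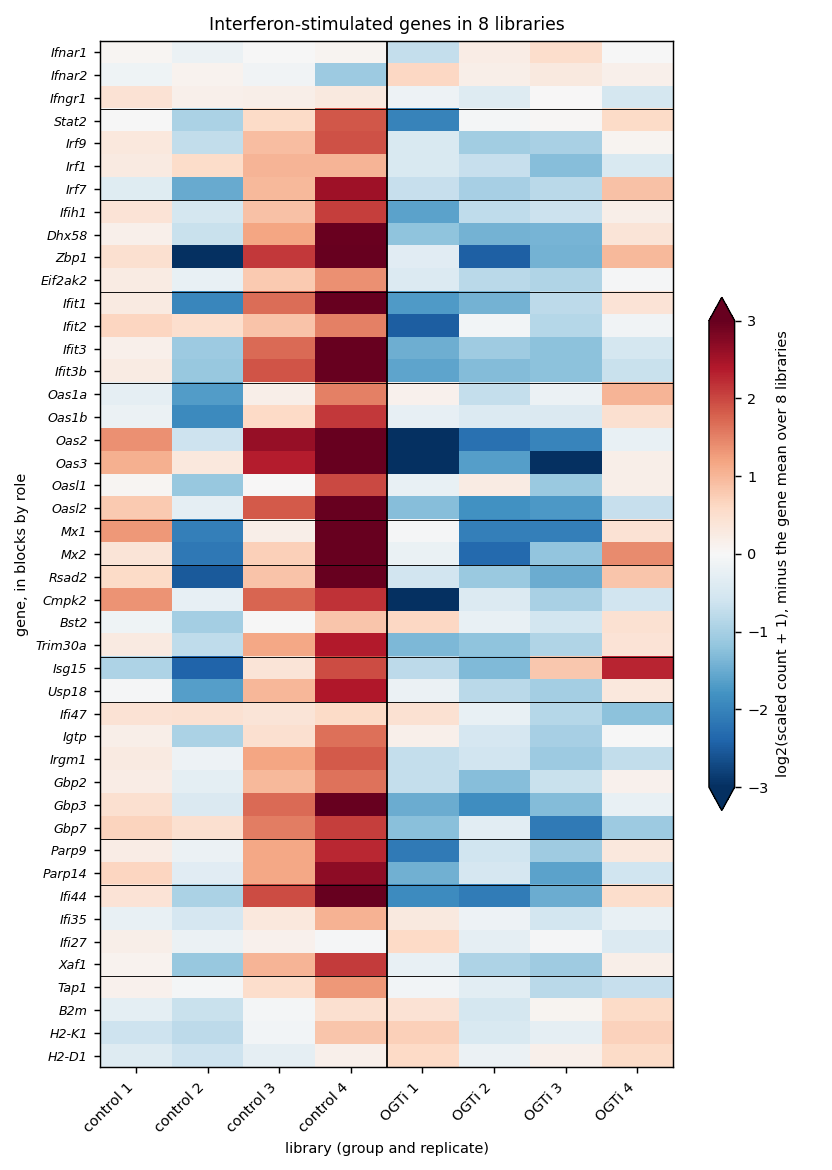
Colour shows log2(scaled count + 1) of each of the 45 genes minus its mean over the 8 libraries, genes in rows by role and libraries in columns. Control replicate 4 is red for most genes and control replicate 2 is blue, while most OGTi columns are blue from Irf9 to Ifi44 and the class I rows at the bottom are not.

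The cultures of one group differed widely in these genes, most of all in control. Over the 43 members with a mean of at least 100 scaled counts, the highest control library was a median of 6.26-fold above the lowest, against 1.51-fold over 10720 genes at that level. In OGTi the same ratio was 2.55 against 1.89. In 26 of the 43 the control range was over 4-fold (60.5%, against 6.71% of all such genes), and in OGTi it was over 4-fold in 11 (25.6%, against 9.53%). The order of the cultures was shared between genes, as control replicate 4 was the highest and control replicate 2 the lowest control library in 38 of the 43 (88.4%, against 19.3%). OGTi replicate 4 was the highest OGTi library in 25 of the 43 (58.1%, against 19.9%).

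**Figure D5:**
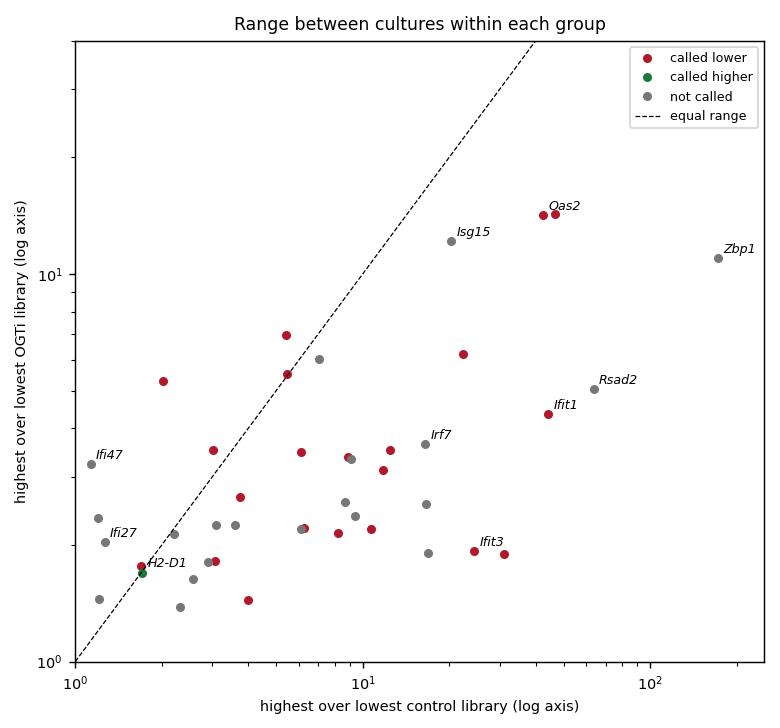
Each point is one of the 43 members with a mean of at least 100 scaled counts, placed by the ratio of the highest to the lowest control library (horizontal, log axis) and of the highest to the lowest OGTi library (vertical, log axis). Most points lie below the dashed line of equal range, with Ifit3 at 24.5 and 1.93 and Isg15 close to the line at 20.4 and 12.1.

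The size of the change differed between pairs. In pair 1, 35 of the 45 genes were lower in OGTi (77.8%), with a median log2 ratio of -0.78. Pair 2, whose control culture had the lowest levels, had 24 lower (53.3%) and a median of -0.15. Pairs 3 and 4 had 40 and 41 lower, each with a median of -1.90. Over all genes tested the share lower was between 47.7% and 51.2% in each pair. Among the 22 genes that fell, all were lower in pairs 1, 3 and 4, and 20 were lower in pair 2.

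Levels between genes are compared per transcript length, in TPM. In control, B2m (5645 ± 1980.0 TPM, SD, n = 4), H2-D1 (2004.5 ± 479) and Bst2 (1037 ± 538) were the most abundant, followed by Ifi27 and H2-K1 at 889 ± 98.4 and 875 ± 496. Bst2, Ifi27 and H2-K1 did not differ beyond their spread. Ifngr1 (256 ± 20.9), Irgm1 (248 ± 153) and Isg15 (248 ± 281) came next and did not differ beyond their spread. In OGTi, Isg15 had 255 ± 283 TPM, Ifngr1 141 ± 21.3 and Irgm1 59.1 ± 13.4, so that the last 2 were apart by more than their SDs. At the other end were Mx1 (0.465), Oas3 (1.93) and Parp14 (3.33), as control means. In length, the genes that fell had a median of 2841 bases, the other members 1809 and all genes tested 2859, and all 22 kept their call when a trend with length was removed.

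Marker genes of other cells were set beside these results, and their part in them was not tested. The summed macrophage list was highest in control replicate 3 and OGTi replicate 3. In pair 1 the macrophage list summed to 50.3 TPM in control and 90.2 in OGTi, of which Cd68 gave 32.3 and 69.4. C1qb had 6.22 TPM in control and 2.39 in OGTi of pair 3, and 3.96 and 1.47 in pair 4. Tyrobp had 13.7 and 16.3 TPM in pair 3, and 5.4 and 5.17 in pair 4. Of the macrophage markers only Cd68 was called, as higher in OGTi (adjusted p = 0.00154). Of 13 stellate markers, 3 were called lower, namely Lrat, Pdgfrb and Pdgfra, with log2 fold changes of -1.78, -1.68 and -1.95, and none was called higher. The 10 not called ran from -0.85 (Col1a1) to 0.53 (Tagln), and 6 of them were below 0, among them the collagens Col1a1, Col1a2 and Col3a1, which were lower in all 4 pairs. Of the other lists, the endothelial genes Tek (-3.36, adjusted p = 0.00235) and Lyve1 (-3.17, adjusted p = 0.034), Tcf4 from the plasmacytoid dendritic list (-2.20, adjusted p = 0.000597) and the cholangiocyte keratin Krt19 (-0.66, adjusted p = 0.0462) were called lower. Cyp2e1 from the hepatocyte list was called higher (3.98, adjusted p = 0.00591). Tcf4 made up nearly all of its list, since Siglech, Ccr9, Flt3 and Cd209d had at most 0.13 TPM in any library, and Epcam of the cholangiocyte list had 2.18 and was not called. The plasmacytoid dendritic list summed to 17.7 to 27.3 TPM in control and 2.84 to 5.45 in OGTi, and the cholangiocyte list to 86.8 to 139.1 and 46.7 to 78.9. The endothelial list summed to at most 4.12 TPM and the hepatocyte list to at most 2.15 TPM in any library.

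A wider set of 113 pathway genes outside the 45 was read for comparison, of which 101 could be tested. Among these 38 fell (37.6%, again against 10.2%) and 2 rose. The further interferon-stimulated genes contributed 27 of 50, the sensors and adaptors 5 of 13, and antigen presentation 4 of 16. Among the sensors, Ddx58, which encodes RIG-I, had a log2 fold change of -2.24 ± 0.32 (SE, adjusted p = 0.00151) and Tlr3, the endosomal double-stranded RNA receptor, -2.26 ± 0.43 (SE, adjusted p = 0.00598). The 2 genes that rose were Irf8, a myeloid and interferon-gamma-linked factor, with 283, 368, 344 and 295 (control) against 1283, 960.4, 1361 and 1238 (OGTi) (log2 fold change 1.90 ± 0.24 (SE), adjusted p = 0.000782), and Ifi30, a lysosomal thiol reductase, at 1.32 ± 0.24 (SE, adjusted p = 0.00451).

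The largest falls in the wider set were of the same order as those of Oas2 and Oas3. Iigp1, an immunity-related GTPase, had 229, 144, 786 and 1857 (control) against 5.12, 34.6, 27.6 and 59.7 (OGTi) (log2 fold change -4.29 ± 0.53 (SE), adjusted p = 0.000758). Slfn2, a member of the Schlafen family, had 837, 405, 1721 and 2883 (control) against 53.3, 70.4, 117 and 108 (OGTi) (log2 fold change -3.80 ± 0.36 (SE), adjusted p = 0.000286), and both groups stood apart in these genes. The Schlafen genes Slfn8 and Slfn9 followed at -2.88 ± 0.47 (SE, adjusted p = 0.00302) and -2.68 ± 0.37 (SE, adjusted p = 0.00135). The GTPases Gbp9, Irgm2, Gbp5, Tgtp1 and Tgtp2 had log2 fold changes of -2.87, -2.42, -1.95, -2.79 and -2.87. The call of Gbp5 (adjusted p = 0.0357) was lost in 7 of 13 alternatives, and over the 13 its value ranged from -2.16 to -0.42. The DNA-binding PYHIN genes Ifi203 and Ifi205 had -2.35 and -1.86, and Samd9l, Ddx60, Rtp4 and Parp11 had -2.84, -2.55, -1.99 and -1.88. The call of Ddx60 (adjusted p = 0.0391) was lost in 5 of 13 alternatives and that of Rtp4 in 2. Over the 13 the Ddx60 value ranged from -3.46 to -0.85. On the log2(TPM + 1) scale used with limma, the values of Iigp1, Gbp9, Slfn8 and Slfn9 were nearer to 0, at -2.72, -1.73, -1.43 and -1.48, and all kept the call. H2-M3, a non-classical class I molecule that presents formylated peptides, fell by the same measure, with -2.09 ± 0.25 (SE, adjusted p = 0.000645).

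Transcripts of the 9 interferon genes read were scarce. These were Ifna1, Ifna2, Ifna4, Ifnb1, Ifnk, Ifne, Ifnl2, Ifnl3 and Ifng, and no other Ifna gene was read. Of the 9 only Ifnb1, interferon beta, had enough counts to be tested. Its scaled counts were 0.917, 0, 5.52 and 56.8 in control replicates 1 to 4 and 4.1, 1.12, 4.41 and 18.4 in OGTi replicates 1 to 4. Control replicate 4, the culture with the highest levels of most of the 45 genes, also had the most Ifnb1, and the difference did not pass the test (log2 fold change -0.09 ± 1.16 (SE), adjusted p = 0.97).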

How the data were processed

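According to the labels and methods, the authors sorted stellate cells by retinol, cultured and treated them, and enriched their RNA with oligo dT before stranded paired-end sequencing. The submitters' processing notes name Bowtie2 2.3.5.1, RSEM 1.3.1, DESeq2 1.36.0 and mm39 (GRCm39). The deposited tables, 1 per library, hold expected counts and TPM as the authors' RSEM run estimated them. RSEM divides reads that match several genes, so values of near-identical genes are uncertain. The authors' comparison table was not used, which left 16 columns of per-sample values unread. It also holds their fold changes and p-values.

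After rounding, expected counts entered edgeR 4.0.16 (R 4.3.3). Genes with a total of at least 10 counts were kept, TMM set the library scaling, and the quasi-likelihood fit took the replicate number as a block and covered all genes (biological coefficient of variation 0.342), with Benjamini-Hochberg adjustment. Code was tested on simulated counts. The standard error is the log2 fold change over the root of the F statistic. Pair ratios used scaled counts plus 1.

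The study's methods state the pairing. Correlations of same-numbered libraries' deviations from the group means were 0.16, 0.224, 0.105 and 0.318, and those of other pairs -0.312 to 0.208. Totals of 30068876 to 37372420 make counting error small for most genes, and the replicates are stated to be separate experiments.

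Alternatives were a fit without the block, DESeq2 1.42.0, other scalings and filters, limma 3.58.1 on log2(TPM + 1), a length trend, and leaving out each replicate. The genes, lists and tests were chosen with earlier results of these data known. All 45 genes were named, and of the wider list Ifnb1 and the 20 called genes of largest absolute log2 fold change, of which 1 is not reported here, with Ifi30 added after its value was seen. Gene positions are from GENCODE vM39 on GRCm39. Promoter windows are from RefSeq (table build GRCm38.p6), placed in GRCm39 by exact match.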

Additional observations from a re-analysis of the deposited data

Results flagged for a closer look

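Within groups of 4 libraries, 1 library stood far from the other 3 in 16 of 132 groups examined by Dixon's criterion. About 6.6 would be marked by chance if the groups were independent and their values normally distributed. The genes come from the same 8 libraries and shared the order of the cultures, so 6.6 cannot serve as a measure here. Most of the 16 were marked for replicate 4. Control replicate 4 was far above the other controls for Oas3 (505 scaled counts, others 20.2 to 86.6), Oasl1 (2048), Mx1 (80.9, others 0 to 9.17), Mx2 (783), Rsad2 (3468, others 54.5 to 576), Slfn8 (517) and Ifnb1 (56.8, others 0 to 5.52). OGTi replicate 4 was far above the other OGTi libraries for Irf7 (1844, others 506 to 621), Dhx58 (172), Oas1b (147), Trim30a (1059), Ifi44 (1160.1, others 186 to 284), Ifi203 (255) and Gbp9 (118). OGTi replicate 1 was apart for Parp11, with a low value of 192, and for H2-M3, with a high value of 374. OGTi replicate 4 also had the most genes with a count (23746, against 19035 to 20293 in the others), and the part of this in the values above was not tested.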

How the results depend on the processing

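The number of members called lower was 22 and stayed between 16 and 30 under other tools, scalings and filters, where 7.67% (no block) to 17.3% (limma) of all genes were called lower. It was 16 without the replicate block, of which 15 were among the 22, and 11 to 27 when 1 pair was left out, the lowest without replicate 4, against 5.52% to 9.03% of all genes. The genes called over the whole table were 1905 to 3124 and the pathway genes called 26 to 42 with 1 pair left out. The members called higher were 0 without the replicate block, with library totals alone, with limma on TPM and with any 1 pair left out (0 to 0), and 2 with DESeq2. Irf1, Ifit2, Oas2, Oasl2, Gbp2, Gbp3, Gbp7 and Ifi44 kept the call in all 13 alternatives, and the paired block changed no direction among the genes that fell. Ifnar2 passed the test (higher) with DESeq2, Stat2 (lower) without replicate 2, and Irf7 (lower) with no count filter and without replicate 2. Genes near 0 changed sign. Ifnb1 was -1.16 without the replicate block, 0.24 with DESeq2, 0.039 with upper-quartile scaling and -0.69 to 1.03 with 1 pair left out (1.03 without replicate 4). Ifnar1 was -0.18 with library totals, -0.31 with limma, and -0.16 to 0.27 with 1 pair left out (below 0 without replicates 2 and 3). B2m was -0.051 with limma. H2-K1 was -0.00425 with limma and -0.011 to 0.49 with 1 pair left out (below 0 without replicate 1). The cause was not tested. Counting error limits Mx1, Oas3 and Ifnb1, which had libraries without a count. The median over all genes moved to 0.13 with upper-quartile scaling, -0.19 with library totals, 0.14 with no count filter and -0.10 with limma, and the member medians there were -1.11, -1.45, -1.25 and -1.23.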
